A study of Mus musculus with 18 samples.

Results

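The cardiac transcription factors are 10 genes that pattern and maintain heart muscle: Gata4, Gata6, Nkx2-5, Tbx5, Tbx20, Mef2a, Mef2c, Mef2d, Hand2 and Tead1. Their members in the data were the ChIP-seq peaks that the deposited table assigns to these gene symbols, together with the peaks without an assigned gene whose centre lies within the gene. Of the 10 genes, 9 had such peaks, and Mef2c was not analysed here. The 9 genes held 144 of the 101256 peaks in the series. Of the 144, 46 were assigned to a gene by the table, which does so for a peak near the gene's start (called promoter peaks below), and 98 lay within the gene without an assignment (called inner peaks). Peaks of other genes inside these intervals were left out: 1 in Gata6 and 3 in Tead1.

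GATA4 and GATA6 are zinc-finger proteins, NKX2-5 is a homeodomain protein, TBX5 and TBX20 are T-box proteins, the MEF2 proteins are MADS-box proteins, HAND2 is a basic helix-loop-helix protein and TEAD1 is the DNA-binding partner of the YAP and TAZ cofactors. They bind each other and share many enhancers, and several of them activate their own and each other's genes in the developing and adult heart. Pol II ChIP-seq reads RNA polymerase on a gene, which is related to its transcription but does not measure the RNA or the protein.

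The study compared adult mouse ventricles of 3 genotypes, labelled WT, trdn-as KO and Mettl3lox/lox:alphaMHC-MerCreMerpos (Mettl3 KO). In Trdn-as KO mice a polyadenylation site in the first exon stops the long non-coding RNA Trdn-as, which is transcribed opposite the triadin gene. In Mettl3 KO mice the gene of the RNA m6A methyltransferase METTL3 is deleted after tamoxifen, by a Cre that the Myh6 (alpha-MHC) promoter drives in cardiomyocytes, so the other cells of the heart keep the gene. Per the study's methods, Mettl3lox/lox controls without the transgene also received tamoxifen, but the sources do not say whether the WT of these libraries were such mice. Chromatin from a pair of hearts was precipitated with antibodies against the largest Pol II subunit and against CTCF, an insulator protein, in 2 libraries per genotype and antibody, and with IgG in 1 library per genotype. The labels do not say that the libraries of a genotype are separate animals, so the p-values below measure the spread between libraries, which may be technical.

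The peaks held an estimated 1987638 to 4953296 reads per Pol II library, 6789363 to 10163658 per CTCF library and 273491 to 813043 per IgG library. The Trdn-as KO replicate 2 Pol II library stood apart, with 18.6% of its uniquely mapped reads in peaks against 35.5% to 42.6% in the other 5, and values are given without it where it matters. Esr1, whose hormone-binding part is in the MerCreMer protein, read 17 and 11 (WT), 21 and 20 (Trdn-as KO), and 759 and 829 (Mettl3 KO) normalised read counts of Pol II. Mettl3 itself read 199 and 215 (WT) and 262 and 248 (Mettl3 KO), which does not test a deletion of exons in cardiomyocytes alone. The 6 peaks on the Y chromosome summed to 0 in both Pol II libraries of Trdn-as KO, to 279 and 326 in WT and to 223 and 239 in Mettl3 KO, so any difference of Trdn-as KO from the others cannot be told apart from a difference in sex.

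Starts of the 9 genes were compared with the peaks by distance from the gene start as the table gives it (mm39). The gene lengths were equal in the GRCm38 annotation (GENCODE vM21) for all 9, so transcript starts are given as distances. RefSeq promoter sequences (GRCm38.p6, 250 nt before to 50 nt after the start) matched 5 of the 9 genes, and all 5 place the start inside the strongest Pol II peak of the gene. Those of Hand2, Mef2a and Mef2d are shown because they hold letters searched for, and that of Nkx2-5 because its start is not the one of the table. Capitals mark the letters searched on either strand: the GATA word is AGATAA, the T-box word is AGGTGT, the NKX2-5 word is TNAAGTG, the TEAD word is GGAATG, and the MEF2 word starts with CTA and ends with TAG around 4 free bases. The CTCF core was searched as AGGGGGC, and with other bases in its middle as AGGTGGC, also as AGATGGC and also as AGAGGGC. No marked words overlapped.
Nkx2-5, chr17:26841516-26841815, minus strand: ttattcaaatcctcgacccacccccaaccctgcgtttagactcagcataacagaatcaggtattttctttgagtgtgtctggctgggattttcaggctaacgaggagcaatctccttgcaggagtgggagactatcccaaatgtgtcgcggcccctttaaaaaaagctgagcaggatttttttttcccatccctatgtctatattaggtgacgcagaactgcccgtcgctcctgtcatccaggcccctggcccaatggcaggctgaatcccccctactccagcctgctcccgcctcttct
Hand2, chr8:57320733-57321032, plus strand: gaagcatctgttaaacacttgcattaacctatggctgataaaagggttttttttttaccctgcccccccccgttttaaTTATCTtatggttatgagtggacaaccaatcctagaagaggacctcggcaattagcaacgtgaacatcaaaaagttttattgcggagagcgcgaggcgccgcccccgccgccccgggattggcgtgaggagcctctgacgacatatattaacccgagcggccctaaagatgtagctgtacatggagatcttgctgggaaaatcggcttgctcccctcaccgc
Mef2a, chr7:67372809-67373108, minus strand: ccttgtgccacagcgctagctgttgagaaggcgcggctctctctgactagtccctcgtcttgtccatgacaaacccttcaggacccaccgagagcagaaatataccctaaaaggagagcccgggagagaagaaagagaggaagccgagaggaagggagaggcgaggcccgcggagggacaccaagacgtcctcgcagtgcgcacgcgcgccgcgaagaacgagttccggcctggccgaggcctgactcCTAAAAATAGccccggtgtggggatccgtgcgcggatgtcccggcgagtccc
Mef2d, chr3:88142122-88142421, plus strand: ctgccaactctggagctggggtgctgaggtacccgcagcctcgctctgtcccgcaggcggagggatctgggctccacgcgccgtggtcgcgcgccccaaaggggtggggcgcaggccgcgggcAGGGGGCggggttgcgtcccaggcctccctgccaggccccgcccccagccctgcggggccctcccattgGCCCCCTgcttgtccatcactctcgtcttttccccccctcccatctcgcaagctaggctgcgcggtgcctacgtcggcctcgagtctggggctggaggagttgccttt

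In Mef2a a MEF2 word (CTAAAAATAG) began at position -2 from the start, a word found in 3.69% of the 32851 RefSeq promoters of the same length. In Hand2 a GATA word on the minus strand (TTATCT) lay at -172, and 11.2% of all promoters held such a word. Mef2d held CTCF core words at -127 and -58, on opposite strands, and 27.6% of all promoters held at least 1. The windows of Nkx2-5 and of Tbx20 (chr9:24774254-24774553, minus strand) held none of the 6 kinds of word. E-box letters (CANNTG), the kind that HAND2 and its partners bind, were in 72.3% of all promoters, in Hand2 at -246 and -235 and in Nkx2-5 at -113. The 5 windows held 9 (Nkx2-5) to 27 (Mef2a) CG dinucleotides against a median of 7 over all promoters. These are matches of letters and not measured binding.

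The strongest Pol II peak of each gene was a long one that lay over the body of the start region. These peaks were 2108 nt (Tead1) to 8401 nt (Gata6) long, longer than 97.2% or more of all peaks, whose median was 416 nt. For Gata6, Tbx20, Mef2a, Mef2d, Hand2 and Tead1 the peak covered the gene start of the table. For Nkx2-5 it did not: the peak (chr17:27057709-27061550) ran from 2433 to 6274 nt after the table's start and covered the start of the transcript ENSMUST00000015723 at 3444 nt, the start that RefSeq gives, whereas the small peak at the table's start averaged 10.7 normalised read counts over the 6 Pol II libraries against 492 for the long one. The Tbx5 peak (chr5:119972917-119975788) lay 2184 to 5055 nt after the table's start, covering the start of ENSMUST00000202504 at 3487 nt and beginning after that of ENSMUST00000018407 at 1995 nt.

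Gata4, a factor required for heart tube formation and for the adult growth response, had its highest Pol II signal inside the gene as the table draws it. The inner peak (chr14:63481226-63486979, from 22162 to 27915 nt after the gene start) averaged 1240 normalised read counts and the promoter peak (chr14:63503796-63509723) 852. The starts of the 2 coding transcripts that reach from there to the gene's end, ENSMUST00000067417 at 26421 nt and ENSMUST00000118022 at 26444 nt, lie in the inner peak, and the 3 coding transcripts that start in the promoter peak at 0 and 568 nt end by 30590 nt. The inner peak thus lies over an annotated start although the table gives it no gene.

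**Figure D1:**
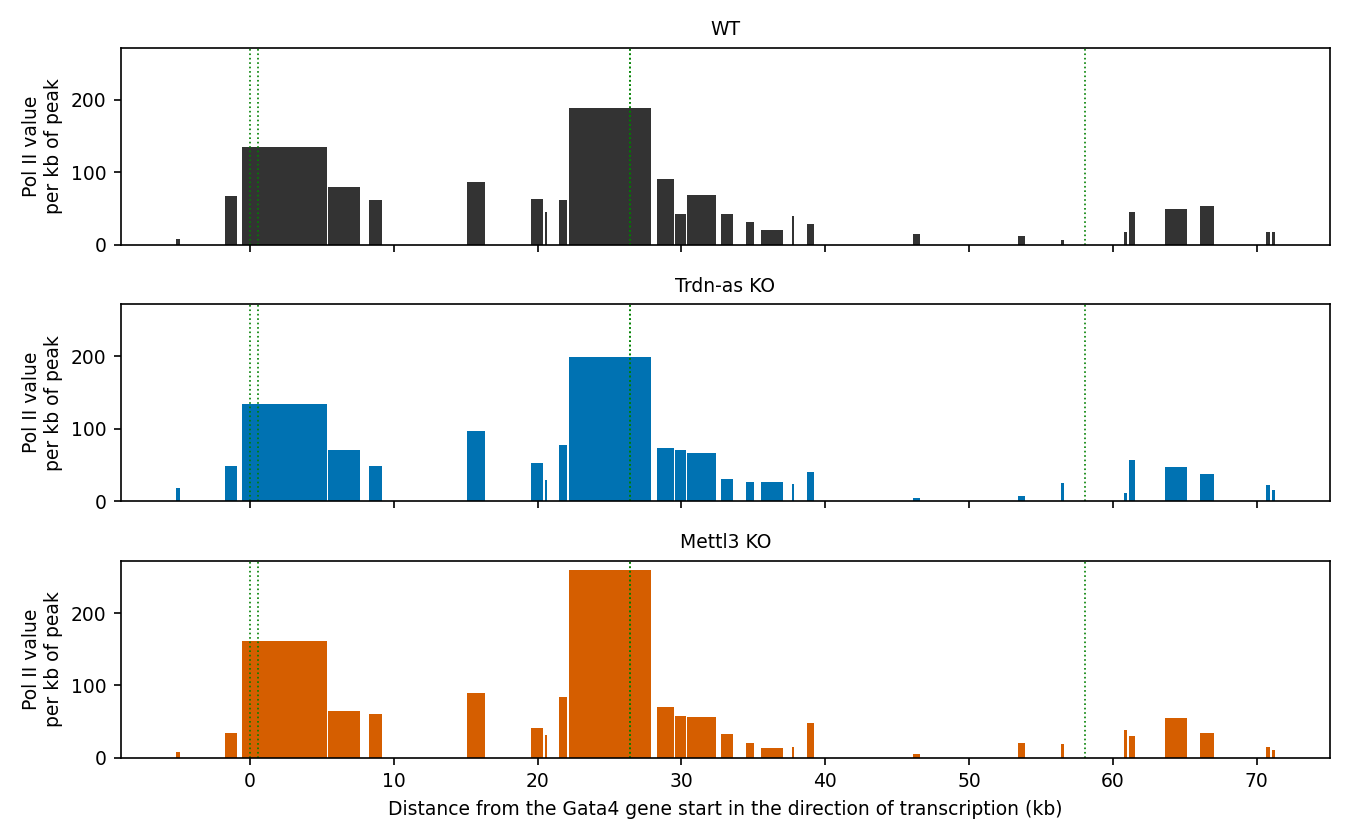
Pol II over Gata4: the mean of the 2 libraries of each genotype, as normalised read count per kb of peak (y axis), drawn over the span of each of the 27 peaks by distance from the gene start in kb (x axis). Green dotted lines mark starts of coding transcripts; the tallest block in all 3 genotypes is the inner peak over the starts at 26421 and 26444 nt.

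Pol II at the strongest promoter peak was compared between genes per length, as reads per 1000000 uniquely mapped reads (RPM) per kb in WT (mean ± SD, n = 2). Mef2a (21.1 ± 3.06) and Mef2d (20.4 ± 1.45) were highest, followed by Hand2 (15.4 ± 1.20), Gata6 (13.9 ± 1.62), Tead1 (13.9 ± 1.53), Tbx20 (13.5 ± 1.59), Gata4 (11.9 ± 1.80), Nkx2-5 (11.4 ± 1.15) and Tbx5 (9.25 ± 0.193). The inner Gata4 peak stood at 16.5 ± 1.08, between Mef2d and Hand2. Neighbours in this order lay within their SDs of each other, except Mef2d against the inner Gata4 peak and Nkx2-5 against Tbx5. IgG at the same promoter peaks in WT was between 0.612 (Nkx2-5) and 1.34 RPM per kb (Mef2a). Summed over its peaks, each gene stood above 83.4% (Tbx5) to 99.9% (Gata4) of the 13979 genes with a peak in mean Pol II value, a sum that also grows with peak length.

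Over all peaks of a gene, Pol II exceeded the IgG of the same genotype in each of the 6 libraries for all 9 genes, by 2.73-fold (Mef2a, Trdn-as KO replicate 2) to 15.8-fold (Hand2, WT replicate 2), in RPM. CTCF exceeded IgG by 2.75- to 6.69-fold. At the strongest promoter peak of each gene the ratio was 3.60 to 22.5 for Pol II and 2.24 to 7.05 for CTCF. The IgG value of these peaks rested on as few as 9 reads and had 1 library per genotype, so differences in these ratios between genotypes were not tested. Over the 34 member peaks with at least 10 IgG reads in WT, the median ratio in WT was 7.45 for Pol II and 4.31 for CTCF, against 6.82 and 5.72 over all 23571 such peaks.

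The first comparison asked whether stopping Trdn-as changed Pol II on these genes. No gene of the 9 passed the test in Trdn-as KO against WT (limma on log2 of the normalised read count plus 1, Benjamini-Hochberg adjusted p under 0.05 over all 12862 genes tested; all 9 adjusted p = 0.999), and none had an unadjusted p under 0.05 (6.28% of all genes). Over all genes 62 passed, or 0.482%. Gene log2 fold changes were between -0.19 (Nkx2-5) and 0.12 (Tead1) with a median of -0.07, against -0.03 over all genes. Of the 144 peaks 91 had enough signal to be tested, and 0 passed, with 8 at an unadjusted p under 0.05. Over all 52655 peaks tested 0.304% passed and 7.70% had an unadjusted p under 0.05.

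Values by library show the width of the spread. Nkx2-5, the homeobox gene at the centre of the cardiac network, read 972 and 1047 (WT), 1005 and 783 (Trdn-as KO), and 965 and 934 (Mettl3 KO). Gata6 read 1372 and 1536 (WT), 1522 and 1313 (Trdn-as KO), and 1528 and 1481 (Mettl3 KO). Tead1 read 827 and 869 (WT), 1008 and 848 (Trdn-as KO), and 940 and 943 (Mettl3 KO). For all 9 genes replicate 2 was the lower of the Trdn-as KO libraries. The range of Trdn-as KO overlapped that of WT in all 9, while 25.5% of all genes tested had no overlap.

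With replicate 1 of Trdn-as KO left out, so that the library that stood apart was the only 1 of its genotype, 4 genes passed as lower in Trdn-as KO: Nkx2-5 (-0.37, adjusted p = 0.00545), Hand2 (-0.30, adjusted p = 0.0101), Mef2d (-0.28, adjusted p = 0.0161) and Tbx20 (-0.24, adjusted p = 0.0351), all by limma. In that fit 20.4% of all genes passed, 2539 of the 2629 as lower. With replicate 2 left out instead, 0 passed, against 1.09% of all genes. The lone library is assumed in such a fit to vary like the other genotypes.

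The second comparison asked the same of the loss of METTL3 in cardiomyocytes. No gene of the 9 passed in Mettl3 KO against WT, while 4.42% of all genes did, and none had an unadjusted p under 0.05, against 24.5% of all genes. The middle of all genes moved in this comparison: the median log2 fold change over the 12862 genes was 0.22, and 0.07 when the libraries were scaled to their total over all peaks. The changes are therefore given also relative to that median, where they differed by at most 0.01 between the 4 scalings run.

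Hand2, a ventricular chamber factor, stood lowest. It read 1177 and 1229 (WT), 1198 and 978 (Trdn-as KO), and 1036 and 1032 (Mettl3 KO), so both Mettl3 KO libraries were below both WT libraries. Its log2 fold change was -0.22 (SE 0.14; adjusted p = 0.312, limma), or -0.44 relative to the median gene. Tbx5, the gene mutated in Holt-Oram syndrome, read 506 and 503 (WT), 524 and 424 (Trdn-as KO), and 442 and 462 (Mettl3 KO), without overlap of the last with WT, at -0.16 (SE 0.16; adjusted p = 0.513) or -0.38 relative to the median. Of the 7215 genes with a mean of at least 200, 3.49% had a lower log2 fold change than Hand2 and 4.91% a lower one than Tbx5.

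Gata4, Mef2a, Tbx20 and Tead1 had positive log2 fold changes close to those of the median gene. Mef2a, a MEF2 gene active in the adult heart, read 724 and 826 (WT), 827 and 656 (Trdn-as KO), and 958 and 918 (Mettl3 KO), with a log2 fold change of 0.28 (SE 0.15; adjusted p = 0.223) or 0.05 relative to the median. Gata4 read 2857 and 3029 (WT), 3252 and 2632 (Trdn-as KO), and 3367 and 3368 (Mettl3 KO) (0.19, or -0.03 relative to the median). Tbx20, a T-box repressor and activator that adult cardiomyocytes need, read 1237 and 1344 (WT), 1385 and 1094 (Trdn-as KO), and 1494 and 1433 (Mettl3 KO) (0.18, or -0.04). In these 3 genes and in Tead1 both Mettl3 KO libraries were above both WT libraries, as they were in 61.8% of all genes tested. They were below both in Hand2, Tbx5 and Nkx2-5, and in 9.77% of all genes.

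The remaining genes lay between. Mef2d read 2188 and 2289 (WT), 2321 and 1848 (Trdn-as KO), and 2118 and 2332 (Mettl3 KO), a log2 fold change of -0.01 in Mettl3 KO or -0.23 relative to the median. Nkx2-5 was at -0.09, or -0.31 relative to the median, and Gata6 at 0.05, or -0.17.

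Which of these genes passed depended on the scaling and on the third genotype. Scaled to the total over all peaks, 4 passed as lower in Mettl3 KO: Hand2 (-0.38, adjusted p = 4.61e-05), Tbx5 (-0.32, adjusted p = 0.00969), Nkx2-5 (-0.25, adjusted p = 0.0108) and Mef2d (-0.17, adjusted p = 0.0412), while 12% of all genes passed. Scaled on the peaks above the upper quartile of signal, an alternative chosen after seeing the data, Hand2, Tbx5 and Nkx2-5 passed, against 11.6% of all genes. In the deposited scaling with only the 2 genotypes compared, Gata4, Mef2a and Tbx20 passed as higher and Hand2 as lower (adjusted p = 0.0108, 0.00653, 0.0254 and 0.00894, limma). In that fit 41.5% of all genes passed, so 4 of 9 is near the background; 6 of the 91 peaks passed against 8.84% of all peaks. Scaled to uniquely mapped reads none of the 9 passed, and 0.0233% of all genes did. Hand2, Tbx5, Nkx2-5 and Mef2d had a negative log2 fold change under all 4 scalings, and Gata6 was positive in the deposited scaling only, Tead1 in that and in the scaling to uniquely mapped reads.

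At the level of peaks, 1 of the 91 tested passed in Mettl3 KO against WT, close to the 1.19% of all peaks that passed, and 8 had an unadjusted p under 0.05, against 15.5% of all peaks. The called peak was the inner Gata4 peak over the start of the full-length transcripts. It read 1073 and 1098 (WT), 1203 and 1087 (Trdn-as KO), and 1462 and 1519 (Mettl3 KO). The log2 fold change was 0.46 (SE 0.12, adjusted p = 0.0443, limma), or 0.38 relative to the median peak. It was lost as a call with the replicate block, a fit in which 756 of the 52655 peaks tested passed. The call was lost with no variance trend (adjusted p = 0.541), with no filter on low values (0.474), scaled to uniquely mapped reads (log2 fold change 0.32, adjusted p = 1.00) and without any single library of WT or Mettl3 KO (adjusted p = 0.444 to 0.850). In these fits 0 to 33 of the 52655 peaks passed, or 0 of 101256 with no filter. The call held without either Trdn-as KO library (adjusted p = 0.00119 and 0.00102), with only the 2 genotypes compared (0.000729), with a pseudocount of 5 (0.0298), scaled to the total over all peaks (log2 fold change 0.30, adjusted p = 0.000565) and on the peaks above the upper quartile of signal (0.29, adjusted p = 0.00146).

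The upstream Gata4 promoter peak read 745 and 862 (WT), 955 and 639 (Trdn-as KO), and 942 and 968 (Mettl3 KO). The ratio of the inner to the upstream peak was 1.44 and 1.27 (WT), 1.26 and 1.70 (Trdn-as KO), and 1.55 and 1.57 (Mettl3 KO). The log2 ratio was 0.20 higher in Mettl3 KO than in WT (2-sided exact permutation test, p = 0.333, the smallest p that 2 against 2 can give).

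Hand2 had a second Pol II peak (chr8:57777621-57780120) that began at 3603 nt, near the end of the 3651-nt gene, and ran past it to 6102 nt. It read 221 and 252 (WT), 179 and 134 (Trdn-as KO), and 143 and 155 (Mettl3 KO). The peak was named after its values were seen, and how many of all peaks lie lower in both knockouts was not counted. Its log2 fold change was -0.66 in Mettl3 KO (SE 0.21; adjusted p = 0.103, limma) and -0.60 in Trdn-as KO (SE 0.21; adjusted p = 0.365), and neither passed. In Trdn-as KO it was -0.81 without replicate 1, -0.40 without replicate 2 and -1.20 scaled to uniquely mapped reads. Both comparisons share the WT libraries. In Mettl3 KO the peak passed scaled to the total over all peaks (-0.82, adjusted p = 0.000489, limma), as 4.19% of all peaks did. It passed too on the peaks above the upper quartile (0.000345, with 4.29% of all peaks) and with only 2 genotypes (0.0115, with 9.23%). It did not pass scaled to uniquely mapped reads (-0.80, adjusted p = 0.997), with no variance trend (0.474) or with no filter on low values (0.474). Nor did it with the replicate block (0.122) or a pseudocount of 5 (0.0747). Without single WT or Mettl3 KO libraries the log2 fold change was between -0.76 and -0.57. The long Hand2 peak over the start and body read 822 and 856 (WT), 919 and 741 (Trdn-as KO), and 822 and 808 (Mettl3 KO), with overlapping groups. The table assigns the second peak to Hand2, so it counts as a promoter peak.

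Among the other peaks with an unadjusted p under 0.02 in Mettl3 KO against WT, a Gata4 peak before the gene start (chr14:63510041-63510859) read 56 and 53 (WT), 41 and 39 (Trdn-as KO), and 30 and 26 (Mettl3 KO) (log2 fold change -0.94, adjusted p = 0.157, limma). It passed scaled to the total over all peaks (-1.09, adjusted p = 0.0324, limma), as 4.19% of all peaks did. It did not pass scaled to uniquely mapped reads, with no variance trend, with no filter on low values or with the replicate block. Small Hand2 peaks before the gene start were at -1.82 and -1.28 (adjusted p = 0.110 and 0.169), on means of 15.5 and 18.8. Apart from these peaks, 1 strong Nkx2-5 peak is named for its level only (chr17:27068466-27070746, from -6763 to -4483 nt of the table's start). It read 300 and 308 (WT), 277 and 204 (Trdn-as KO), and 289 and 277 (Mettl3 KO), and did not pass.

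Between the 2 knockouts no gene of the 9 passed for Pol II (7.47% of all genes did), and 1, Mef2a, had an unadjusted p under 0.05, as did 3862 of all 12862 genes (log2 fold change of Trdn-as KO over Mettl3 KO -0.35, SE 0.15; adjusted p = 0.108). Of the 91 peaks 0 passed, against 1.5% of all peaks, with 11 at an unadjusted p under 0.05 (17.9% of all peaks). With Trdn-as KO replicate 1 left out 6 genes and 12 peaks passed, while 59.9% of all genes and 18.1% of all peaks did. With replicate 2 left out 0 genes (4.1% of all) and 1 peak (0.245% of all) passed, the inner Gata4 peak (-0.31, adjusted p = 0.0464, limma).

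The share of a gene's Pol II value that fell in its promoter peaks separated the genes more than the genotypes. In WT it was 92.3% ± 1.33 (SD, n = 2) for Gata6, 90.5% ± 0.0109 for Tbx20, 88.5% ± 0.889 for Tbx5, 87.7% ± 0.0395 for Mef2a, 84.5% ± 0.642 for Mef2d, 43.0% ± 0.0790 for Tead1 and 29.2% ± 1.58 for Gata4. All peaks of Nkx2-5 and Hand2 were promoter peaks. Tead1, the largest of these genes at 227490 nt, spread its Pol II over 34 inner peaks. The Gata4 share follows from its main peak being an inner one.

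For Tead1 the share was 42.9% and 43.0% (WT), 45.9% and 45.8% (Trdn-as KO), and 48.0% and 46.3% (Mettl3 KO), with both knockouts above WT. The difference from WT was 4.18 percentage points for Mettl3 KO and 2.86 for Trdn-as KO. Tbx20 and Gata6 also had higher shares without overlap in both knockouts, by 2.05 and 1.6 points in Mettl3 KO and by 2.21 and 2.74 in Trdn-as KO, and Mef2a in Mettl3 KO, by 2.90. The groups overlapped for Gata4 (0.06 points for Mettl3 KO against -0.83 for Trdn-as KO), Tbx5 (1.73 and -0.44) and Mef2d (0.79 and 0.11), and for Mef2a in Trdn-as KO (0.69). Of all 6780 genes with promoter and inner signal, 34.7% (Mettl3 KO) and 19.1% (Trdn-as KO) lay above WT without overlap, with median differences of 0.97 and -0.06 points. Each of the differences without overlap has p = 0.333 in the 2-sided exact permutation test, the smallest that 2 against 2 libraries allow, so no threshold could be reached. The same WT libraries stand in both comparisons.

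CTCF, which marks insulators and loop anchors, was compared in the same way. None of the 9 genes passed: not in Trdn-as KO against WT, where 0.773% of the 13199 genes tested did, nor in Mettl3 KO against WT (2.21%), nor between the knockouts (3.74%). Unadjusted p under 0.05 was reached by Hand2 in Trdn-as KO against WT and by Gata6 in Mettl3 KO against WT only, and by 11.2% and 17.2% of all genes in these comparisons and 19.9% between the knockouts. Hand2 read 231 and 232 (WT), 207 and 186 (Trdn-as KO), and 215 and 206 (Mettl3 KO) (log2 fold change in Trdn-as KO -0.24, SE 0.08; adjusted p = 0.215, limma). Gata6 read 374 and 415 (WT), 437 and 378 (Trdn-as KO), and 434 and 443 (Mettl3 KO) (log2 fold change in Mettl3 KO 0.15, SE 0.07; adjusted p = 0.246, limma).

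Of the 144 peaks 76 had enough CTCF signal to be tested and none passed in the 3 comparisons (Trdn-as KO against WT, with 0.587% of all 60649 peaks passing; Mettl3 KO against WT, with 0.185%; Trdn-as KO against Mettl3 KO, with 1.37%), while 6, 9 and 3 had an unadjusted p under 0.05, against 10.2%, 15.7% and 18.8% of all peaks. The SE of a gene was 0.04 to 0.10 for CTCF and 0.14 to 0.16 for Pol II on the log2 scale, so CTCF could have shown smaller changes.

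The peaks in which CTCF exceeded Pol II were mostly inner ones. Per kb in WT, CTCF was above Pol II in 6 of the 46 promoter peaks and in 49 of the 98 inner peaks, both in RPM. The same split over all peaks of the series was not counted, so it cannot be read as particular to these genes. Some of these inner peaks were near the floor. In WT a Tead1 peak (chr7:112459038-112459246) read 0 and 0 for Pol II and 2 and 4 for CTCF. The same peak was the densest for CTCF and for Pol II in 2 of the 9 genes, Gata6 and Nkx2-5. The densest CTCF peak of the 144 was an inner peak of Mef2a (chr7:66892472-66894120, 128486 to 130134 nt after the gene start), with 9.57 ± 1.4 RPM per kb of CTCF, 1.99 ± 0.285 of Pol II and 0.518 of IgG in WT. It read 143 and 115 (WT), 118 and 153 (Trdn-as KO), and 114 and 114 (Mettl3 KO) normalised read counts of CTCF. WT and Trdn-as KO overlapped, and the peak passed in no comparison.

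A pair of inner Tead1 peaks (chr7:112464637-112465666 and chr7:112467715-112469005), the first beginning 186112 nt after the gene start, held 8.02 and 9.24 RPM per kb of CTCF in WT and 0.674 and 0.832 of Pol II. The stronger of them read 105 and 90 (WT), 89 and 96 (Trdn-as KO), and 78 and 82 (Mettl3 KO). An inner peak of Tbx20 (chr9:24671686-24672221) held 8.91 RPM per kb of CTCF with 0.574 of Pol II, and 1 of Gata4 (chr14:63443999-63445529) 8.52 with 4.31. CTCF at the strongest promoter peak of each gene ran from 2.81 RPM per kb in Nkx2-5 to 5.86 in Mef2a, and was 5.81 in both Mef2d and Tead1.

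**Figure D2:**
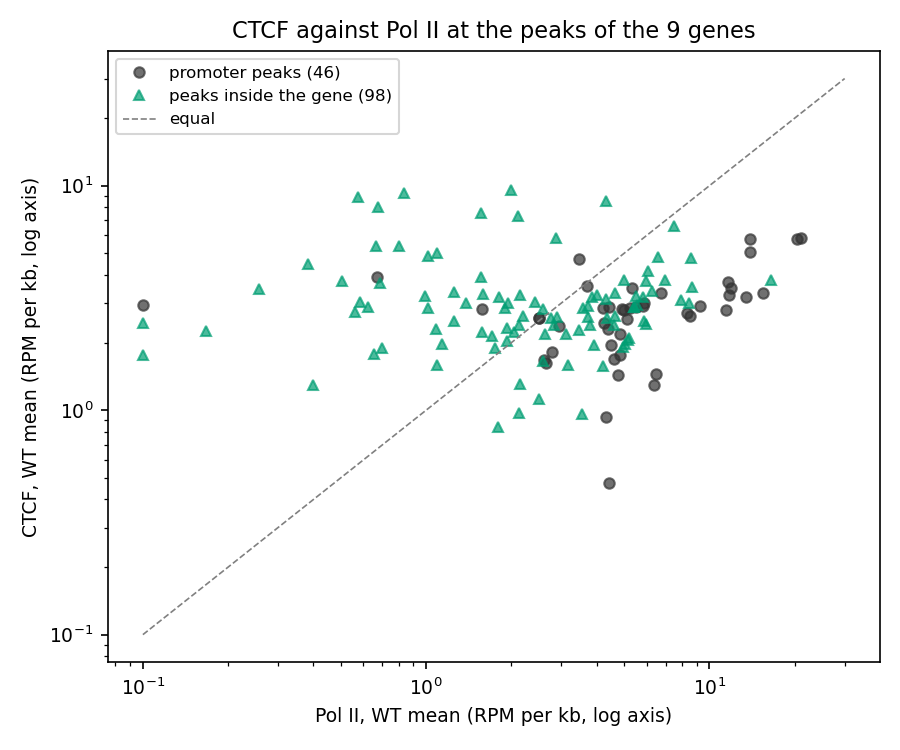
CTCF (y axis) against Pol II (x axis) in WT at the 144 peaks, both as mean RPM per kb of the 2 libraries on log axes. Promoter peaks (46, circles) lie mostly below the line of equal values and inner peaks (98, triangles) on both sides of it; 3 peaks with Pol II under 0.1 are drawn at 0.1.

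The other lists of the pathway were read from the same fits. Of 29 other cardiac transcription factors 21 were tested and 0 passed for Pol II in any comparison, with a median log2 fold change of 0.14 in Mettl3 KO against WT and -0.01 in Trdn-as KO against WT (0.22 and -0.03 over all genes). Of 22 cofactors of the members 18 were tested, and 2 passed in each of these comparisons, where 4.42% and 0.482% of all genes did.

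In Trdn-as KO against WT the cofactor Ankrd1, a stress-responsive titin-associated repressor, read 765 and 898 (WT), 607 and 419 (Trdn-as KO), and 879 and 882 (Mettl3 KO), and was lower in Trdn-as KO (log2 fold change -0.72, SE 0.15; adjusted p = 0.00105, limma; -0.45 and 0.0258 without Trdn-as KO replicate 2). Kdm6a, an X-linked histone demethylase gene that escapes X inactivation, read 497 and 561 (WT), 907 and 759 (Trdn-as KO), and 576 and 612 (Mettl3 KO) (0.65, SE 0.15; adjusted p = 0.00737, limma). Its CTCF moved with it: 150 and 147 (WT), 264 and 261 (Trdn-as KO), and 130 and 136 (Mettl3 KO) (0.82, adjusted p = 2.31e-06, limma).

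In Mettl3 KO against WT the cofactor Vgll3, a TEAD partner, read 76 and 47 (WT), 105 and 91 (Trdn-as KO), and 151 and 182 (Mettl3 KO) (log2 fold change 1.46, SE 0.24; adjusted p = 1.41e-06, limma), with CTCF at 31 and 29 (WT) and 48 and 48 (Mettl3 KO) (0.66, adjusted p = 0.0184, limma). Smarca4, the BRG1 chromatin remodelling ATPase, read 375 and 400 (WT) and 549 and 571 (Mettl3 KO) (0.53, SE 0.16, adjusted p = 0.0331, limma). Relative to the median gene, Pol II of Vgll3 was at 1.23 and that of Smarca4 at 0.31.

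Of 20 known heart targets of the members 18 were tested, and 0 passed for Pol II in Trdn-as KO against WT (0.482% of all genes did). In Mettl3 KO against WT 2 passed as higher and 1 as lower, where 4.42% of all genes passed. In Mettl3 KO against WT Casq2 (calsequestrin; 337 and 332 in WT, 516 and 521 in Mettl3 KO; 0.63, adjusted p = 0.00901, limma) and Nppb (the B-type natriuretic peptide; 673 and 706 in WT, 1089 and 1088; 0.66, adjusted p = 0.00115, limma) rose. Myh7, the slow myosin heavy chain, fell, from 4705 and 5029 in WT to 2709 and 2734 in Mettl3 KO, with 4635 and 3703 in Trdn-as KO (-0.84, SE 0.13; adjusted p = 3.23e-07, limma). The median of the list was 0.01 against 0.22 over all genes. Relative to the median gene Casq2 was at 0.41, Nppb at 0.43 and Myh7 at -1.06.

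Myh6 and Pln passed for CTCF in Mettl3 KO against WT, where 2.21% of all genes did. Myh6 read 299 and 289 (WT), 340 and 322 (Trdn-as KO), and 455 and 480 (Mettl3 KO) (0.67, SE 0.06; adjusted p = 7.26e-06, limma). The Mettl3 KO mice carry extra copies of the Myh6 promoter in their transgene, and the part of these copies in the value was not tested. Pln, phospholamban, read 524 and 491 (WT), 497 and 515 (Trdn-as KO), and 430 and 438 (Mettl3 KO) (-0.22, SE 0.05; adjusted p = 0.0334, limma).

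Between the knockouts, in Trdn-as KO over Mettl3 KO, Pol II also passed for Ankrd1 (-0.80), Kdm6a (0.48), Vgll3 (-0.76), Myh6 (-0.39) and Myh7 (0.61), and CTCF for Kdm6a (0.98), Vgll3 (-0.55), Myh6 (-0.50) and Pln (0.22). Pol II was also lower in Trdn-as KO for the fibroblast genes Col1a1 (-0.87), Col1a2 (-1.07), Col3a1 (-0.90) and Pdgfra (-0.79) and for the smooth muscle gene Tagln (-0.97). Without Trdn-as KO replicate 2 the Pol II calls of Vgll3, Myh6 and Tagln between the knockouts were lost (log2 fold changes -0.65, -0.21 and -0.33, adjusted p = 0.156, 0.104 and 0.438, limma), and Col1a2 was at -0.68. Without replicate 2 of the CTCF libraries of that genotype the CTCF calls of Vgll3, Myh6 and Pln between the knockouts were lost (log2 fold changes -0.61, -0.46 and 0.20, adjusted p = 0.235, 0.0969 and 0.310, limma), as were those of Vgll3 and Pln in Mettl3 KO against WT (0.66 and -0.22, adjusted p = 0.112 and 0.134). In that fit 10 and 1 of the 13199 genes passed in these comparisons.

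Of the cell type markers those of fibroblasts passed for Pol II against WT, in Mettl3 KO, where 4.42% of all genes passed. All 6 tested were higher there: Col3a1 (1.42), Col1a1 (1.22), Col1a2 (1.18), Pdgfra (0.91), Tcf21 (0.71) and Dcn (0.59), at adjusted p of 3.4e-10 to 0.0241 (limma), or 0.37 to 1.19 relative to the median gene. Their summed Pol II was 139 to 163 RPM in WT, 81.7 to 172 in Trdn-as KO and 256 to 271 in Mettl3 KO. Of the 8 cardiomyocyte markers 0 passed against WT in either knockout, with sums of 2426 to 2821 RPM (WT), 1029 to 2094 (Trdn-as KO) and 2241 to 2462 (Mettl3 KO). Fibroblasts and other heart cells also transcribe Gata4, Gata6, Tbx20, Hand2, Tead1 and the Mef2 genes, and in whole ventricle fewer cells of a type and less polymerase per cell cannot be told apart. The part of cell composition in the values of the 9 genes was not tested.

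The markers of the other cells did not pass for Pol II against WT. Of all genes, 0.482% (Trdn-as KO) and 4.42% (Mettl3 KO) passed for Pol II against WT. In either knockout 0 of 5 tested endothelial, 0 of 4 smooth muscle, 0 of 4 macrophage and leukocyte, 0 of 2 atrial cardiomyocyte and 0 of 2 skeletal muscle markers passed. Their summed Pol II in WT was 137 to 160, 23.3 to 29.2, 18.5 to 19.8, 11.7 to 13.9 and 2.96 to 3.17 RPM. For CTCF, 0.773% of all genes passed in Trdn-as KO against WT and 2.21% in Mettl3 KO against WT. Kdr had lower CTCF in both knockouts (-0.36 in Trdn-as KO, adjusted p = 0.0402, and -0.61 in Mettl3 KO, adjusted p = 0.000757, limma) and Cdh5 in Mettl3 KO (-0.47, adjusted p = 0.00970, limma). All 3 calls were lost without Trdn-as KO replicate 2 (log2 fold changes -0.37, -0.61 and -0.47, adjusted p = 0.385, 0.0839 and 0.112, limma), a fit in which 6 and 1 of the 13199 genes passed in the 2 comparisons with WT.

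Scaled to uniquely mapped reads, none of the Pol II calls named from these lists passed (2 in Trdn-as KO against WT, 11 in Mettl3 KO against WT and 10 between the knockouts), with the direction of each kept and 10, 3 and 24 of all genes passing. Kdm6a was at 0.05 in Trdn-as KO against WT in that scaling, and Myh7 at 0.14 between the knockouts. Of the CTCF calls, those of Kdm6a passed.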

How the data were processed

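Pol II, CTCF and IgG ChIP-seq was made from mouse ventricles in 15 libraries (6, 6 and 3), with 2 libraries per genotype and antibody and 1 IgG library per genotype; 3 inputs were not analysed here. Per the methods of the study and the labels, the authors trimmed reads with Trimmomatic 0.39, aligned them to mm39 with STAR 2.7.11b, removed duplicates with Picard 3.1.1, called peaks against input with MACS, merged them into a union, counted reads with featureCounts and divided by DESeq2 1.36.0 size factors. The deposited values are these normalised read counts rounded to whole numbers, a score and not raw counts, so no count test was run. The value of 1 read was estimated per library from the low values and checked on simulated data, which gives the estimated reads in peaks and, with the study's totals of uniquely mapped reads, RPM; these cover counting error only.

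Gene values are sums over a gene's peaks. limma 3.58.1 (R 4.3.3) was fitted with a variance trend to log2(value + 1) over all 3 genotypes of an antibody, on rows reaching 10 in 2 or more libraries, with Benjamini-Hochberg adjustment at 0.05 over all rows tested. Fold changes are on that scale and understate low peaks. Shares and ratios were compared by 2-sided exact permutation tests. Python 3.11.15, pandas 2.3.3, numpy 2.4.6, scipy 1.17.1 and matplotlib 3.10.9 were used. The limma step was tested on simulated data.

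The members, the gene lists and the tests were chosen with earlier results of these data known. Named peaks were the strongest promoter peak and the strongest CTCF peak of each gene and every member peak with an adjusted p under 0.05; other peaks named with values were chosen after these were seen. Genes of the other lists are named where their adjusted p was under 0.05 in a comparison. Alternatives changed the filter, the scaling, the pseudocount (5), the trend, the genotypes in the fit, the replicate block, single libraries, the threshold (0.01) and the peaks summed.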

Additional observations from a re-analysis of the deposited data

How the results depend on the processing

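For CTCF, no alternative called any member gene or peak. For Pol II in Mettl3 KO against WT, where 1 member peak and 0 genes passed, the peak count was 0 at an adjusted p of 0.01, with no filter, scaled to uniquely mapped reads, with no variance trend and with the replicate block. It was 3 scaled to the total over all peaks and on the peaks above the upper quartile of signal (4.19% and 4.29% of all peaks passed), and 7 with only the 2 genotypes compared (9.23%), and it ranged from 0 to 7 with single libraries left out (0% to 8.84%). The gene count was 4 scaled to the total (12.0% of all genes) and with only the 2 genotypes compared (41.8%), 3 on those strongest peaks (11.6%), and 0 to 4 with single libraries left out (0.257% to 41.5%). Between the knockouts 1 peak and 2 genes passed in both of these scalings (2.81% and 2.87% of all peaks, 9.59% and 8.50% of all genes), and 0 to 12 peaks and 0 to 6 genes with single libraries left out (0.0228% to 18.1% and 0.498% to 59.9%). In Trdn-as KO against WT, leaving out single libraries gave 0 to 4 peaks and 0 to 4 genes, with 4 only where Trdn-as KO replicate 1 was left out (3.62% of all peaks, 20.4% of all genes). The cause of these changes was not tested.

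With the replicate block the called Gata4 peak had a log2 fold change of 0.46 (adjusted p = 0.0784, limma). Samples with the same number did not deviate together. The correlations of their deviations across peaks were taken for WT with Trdn-as KO, WT with Mettl3 KO and Trdn-as KO with Mettl3 KO. They were -0.0045, -0.00023 and -0.0096 for Pol II and -0.24, 0.0059 and -0.0095 for CTCF. At -0.24, CTCF samples of WT and Trdn-as KO with the same number tended to deviate in opposite directions, and the cause was not tested. With the numbers crossed in Trdn-as KO, a fit added after seeing the data, 0 member genes and 0 peaks passed for CTCF, while 1.64%, 6.31% and 9.30% of all genes did in Trdn-as KO against WT, Mettl3 KO against WT and between the knockouts. With 1 added to both the promoter and the inner sum of a gene, no difference between genotypes in promoter share moved by more than 1 SD from its value without. With 2 libraries per genotype, and IgG values resting on as few as 9 reads at the strongest promoter peak of a gene, small differences were not detectable at this depth.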
